A study of Mus musculus with 16 samples.

Results

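The EGF-family ligands Hbegf, Areg, Ereg, Btc and Tgfa, the ErbB receptors Egfr, Erbb2 and Erbb3, and the ErbB inhibitors Errfi1 and Lrig1 were followed across sorted crypt cells of the mouse duodenum. The 10 genes were looked up by gene symbol in the platform annotation of a bead array with 25697 probes. Of these, 7 had a probe, with 11 probes between them, and Areg, Erbb2 and Erbb3 are not analysed here. All 7 were among the 10607 genes tested. The arrays held RNA from a mouse line with a doxycycline-inducible TdTomato-BRAF(V600K), a mutant and oncogenic BRAF kinase that signals through MEK and ERK, and from a control line with TdTomato-luciferase. Every mouse had a mixed B6/129S6 background, was 8 to 12 weeks old, carried the Lgr5-EGFP reporter of crypt stem cells and drank doxycycline at 4 mg/ml in 1% sucrose for 24 h. Cells were sorted on red (transgene) and green (Lgr5-EGFP) fluorescence into R (red only), NEG (neither), RG (both) and G (green only). The 6 groups were BRAF R, BRAF NEG, BRAF RG and BRAF G from the same 3 mice, and luciferase RG and luciferase G from the same 2 mice, 16 arrays in all. Here arrays with the same replicate number in a line were taken as 1 mouse. Each red gate was therefore set against non-red cells of the same induced animals, not against cells of untreated mice. No source used here names the promoter that drives either transgene, and line and transgene cannot be told apart.

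Ligands of the EGF family are made as membrane-anchored precursors, and metalloproteases such as ADAM17 release them from the cell surface. They bind EGFR or its relatives, the receptors pair, and the paired kinases start signalling through RAS to RAF, MEK and ERK, among other routes. ERK activity in turn raises transcription of several of the ligands and of feedback inhibitors, and in the intestine EGF receptor signalling supports the division of crypt cells. HB-EGF (Hbegf), betacellulin (Btc) and epiregulin (Ereg) bind EGFR and ERBB4, whereas TGF-alpha (Tgfa) binds EGFR. Errfi1, also known as Mig6, is a cytoplasmic protein that binds the EGFR kinase domain and blocks it. Lrig1 is a transmembrane protein that lowers ErbB receptor levels, and it also marks intestinal stem cells.

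The promoters of the members that passed the test between the BRAF and luciferase RG gates (Errfi1 and Btc), and of the 1 member that fell in BRAF R cells (Lrig1), are given as the 250 bases before an annotated start. They come from RefSeq on assembly GRCm38.p6, in which 7 of the 10 genes were matched, with 8 starts. Capitals mark a full CRE, TGACGTCA, the palindromic element bound by CREB and ATF factors.
Errfi1, second start, chr4:150854820-150855069, plus strand: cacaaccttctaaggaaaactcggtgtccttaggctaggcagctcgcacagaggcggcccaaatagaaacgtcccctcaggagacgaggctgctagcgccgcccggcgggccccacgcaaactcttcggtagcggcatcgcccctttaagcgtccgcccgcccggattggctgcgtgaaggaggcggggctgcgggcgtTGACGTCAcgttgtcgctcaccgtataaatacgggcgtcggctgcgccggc
Btc, chr5:91402995-91403244, minus strand: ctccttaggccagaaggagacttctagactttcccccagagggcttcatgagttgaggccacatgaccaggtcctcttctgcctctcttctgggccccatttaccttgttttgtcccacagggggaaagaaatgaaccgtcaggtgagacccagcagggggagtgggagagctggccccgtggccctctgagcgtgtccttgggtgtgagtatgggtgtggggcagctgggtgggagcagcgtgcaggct
Lrig1, chr6:94700146-94700395, minus strand: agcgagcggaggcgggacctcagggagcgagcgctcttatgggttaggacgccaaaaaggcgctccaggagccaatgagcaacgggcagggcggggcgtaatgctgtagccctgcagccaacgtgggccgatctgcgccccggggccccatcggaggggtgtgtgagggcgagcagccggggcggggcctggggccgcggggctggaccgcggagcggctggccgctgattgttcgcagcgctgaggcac
Motifs searched on both strands were the CRE, the AP-1 element TGANTCA, the ETS element CCGGAAG and the TCF element CTTTGAT. The CRE of Errfi1 began 51 bases before its second start, and the first Errfi1 start and the windows of Btc and Lrig1 held no match to any of these motifs. Among 32851 mouse promoter windows of the same length, 1.55% held the CRE, 6.75% the AP-1 element, 6.91% the ETS element and 3.21% the TCF element. In the remaining matched members, the Areg window held a CRE, the Egfr window an ETS element, and those of Tgfa and Erbb2 no match.

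Values are the authors' normalized intensities on a linear scale, and array medians ran from 118.9 to 119.9. A value at or below its array's median is called dim here. Differences are log2 intensity of the first group minus the second, from limma with the 6 groups in 1 fit, and a gene was called at an adjusted p under 0.05 over all genes tested. The gates were first checked by their own markers. Lgr5, a Wnt target of crypt stem cells, ran from 94.9 to 165.2 in BRAF R, 166.5 to 362.7 in BRAF NEG, 168.3 to 182.0 in BRAF RG and 243.6 to 595.9 in BRAF G. It ran from 138.1 to 141.0 in luciferase RG and 375.4 to 538.2 in luciferase G. Lgr5 RNA was thus above the array median on all 3 BRAF NEG arrays, which the sort placed as Lgr5-EGFP low. Its mean log2 was 7.823 in BRAF NEG, above the 7.469 of BRAF RG and the 7.125 of luciferase RG. Lgr5-low and Lgr5-high below therefore name the EGFP gates, not the level of Lgr5 RNA. Summed over 16 leukocyte markers, intensity was 3160 to 4470 in BRAF R and 22100 to 34200 in BRAF NEG, and 1850 to 4370 in the other 4 groups, so BRAF NEG held leukocyte RNA. Of these markers, Ptprc and Cd3e were dim on every array outside BRAF NEG. Others were not, since Ccl5 (122.9 to 316.3) and Gzma (159.0 to 265.3) were above the array median on all 3 BRAF R arrays. In these bulk samples, fewer cells of a type and less RNA per cell cannot be told apart.

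**Figure D1:**
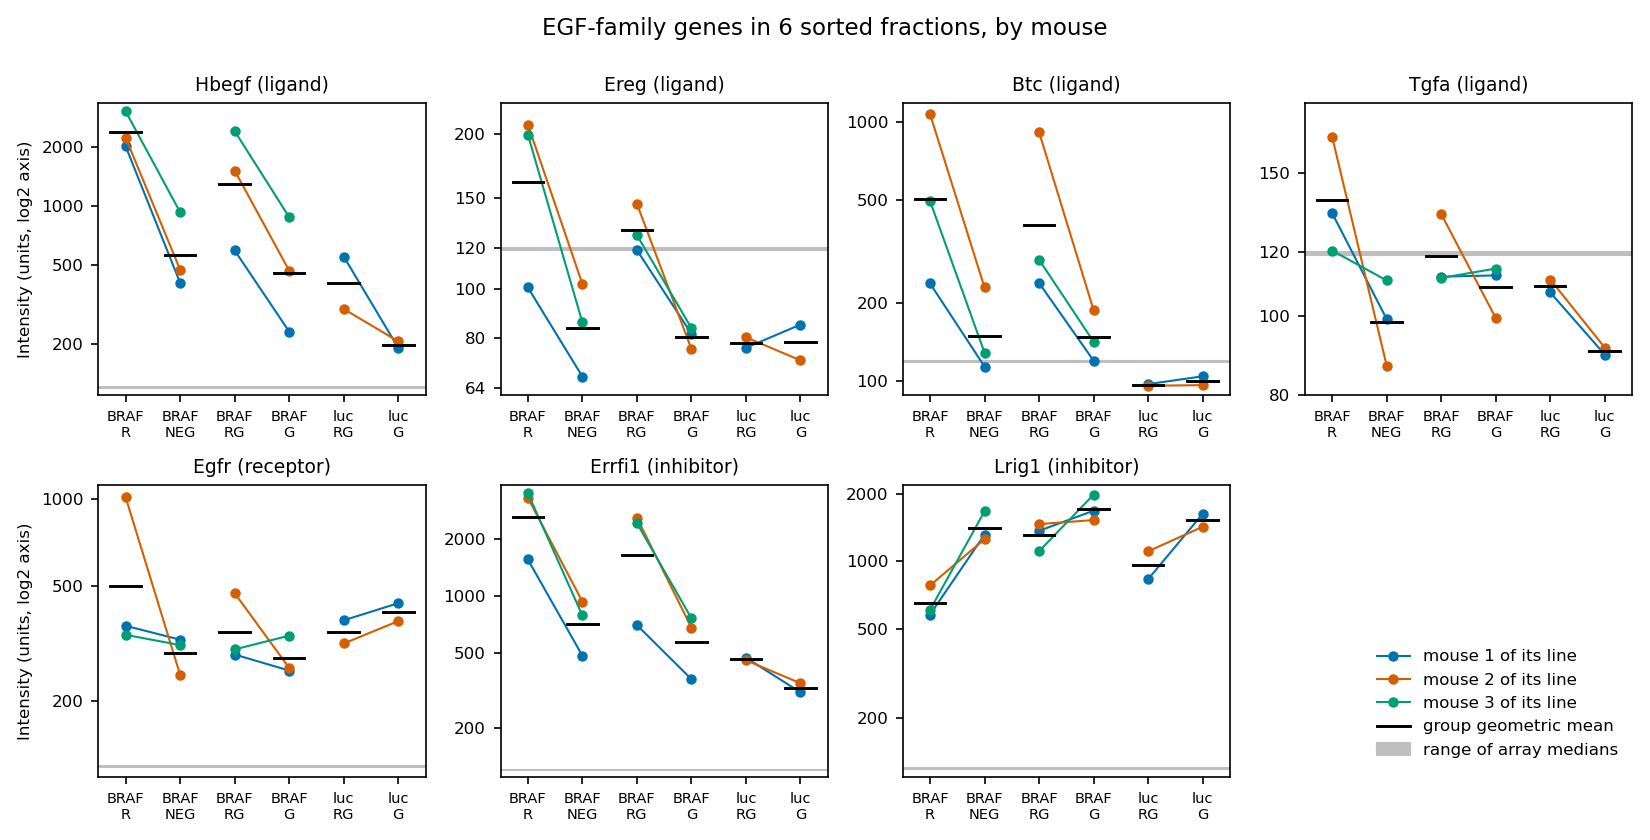
Intensity (log2 axis) of the 7 measured genes in the 6 sorted fractions. Points are arrays, coloured by mouse and joined within a mouse between a red gate and its non-red gate, black bars are group geometric means and the grey band is the range of array medians. Hbegf and Errfi1 were above the non-red gate in every BRAF mouse, and Lrig1 was below it.

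In Lgr5-low cells, 5 of the 7 genes were higher in BRAF R than in BRAF NEG and 1 was lower, against 5.26% of all genes called higher and 7.3% called lower. The ligands Hbegf, Btc, Ereg and Tgfa and the inhibitor Errfi1 rose, the inhibitor Lrig1 fell, and the brightest Egfr probe did not pass. Ereg and Tgfa were above the array median on 4 arrays each, all of them BRAF red gates, so they entered the test through the cells in which they were high and had to differ. Of the other 5 genes, Hbegf, Btc and Errfi1 were higher, Lrig1 was lower and Egfr was not called. Beside this comparison, 14 of the 16 leukocyte markers were lower in BRAF R (median -3.22) and 9 of 12 enteroendocrine markers were higher (summed intensity 30200 to 70000 in BRAF R and 16300 to 24400 in BRAF NEG). Of 7 tuft cell markers, 4 were lower (704 to 934 in BRAF R and 1210 to 2010 in BRAF NEG). Their part in the members' differences was not tested. Between BRAF NEG and BRAF G the members' own differences ran from -0.29 to 0.31, with none called.

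Hbegf was bright in every group. Its probe read 2011.0, 2223.2 and 3026.5 in BRAF R, against 406.4, 473.8 and 929.1 in BRAF NEG, from mice 1, 2 and 3 in that order. All 3 BRAF R values lay above all 3 BRAF NEG values, by 4.95-, 4.69- and 3.26-fold within the mice. The fitted difference was 2.08 ± 0.50 (SE, n = 3 each; limma adjusted p = 0.0128).

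Btc, which lies on chromosome 5 near Areg and Ereg, varied more between mice. It read 238.6, 1077.1 and 496.7 in BRAF R, against 113.9, 230.1 and 128.9 in BRAF NEG. Mouse 2 was highest in both gates, the groups did not overlap, and the folds within the mice were 2.09, 4.68 and 3.85. The difference of 1.75 ± 0.50 (SE) had a limma adjusted p of 0.0315, or of 0.000658 in the fit blocked by mouse.

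Ereg and Tgfa were near or under the array median everywhere. Ereg read 100.6, 209.1 and 199.9 in BRAF R, against 67.4, 102.2 and 86.0 in BRAF NEG. The 2 groups overlapped, since mouse 1 had 100.6 in BRAF R, under the 102.2 of mouse 2 in BRAF NEG. BRAF NEG was dim on all arrays, and BRAF R was dim in mouse 1. On the group means Ereg was at least 1.35-fold higher in BRAF R (mean log2 7.34 ± 0.59 in BRAF R and 6.39 ± 0.30 in BRAF NEG, SD, n = 3 each; limma adjusted p = 0.0166). A second Ereg probe was dim on all 16 arrays (70.7 to 111.6). Tgfa read 134.0, 166.4 and 120.5 in BRAF R, against 99.2, 86.9 and 110.7 in BRAF NEG. It was at least 1.16-fold higher in BRAF R (mean log2 7.12 ± 0.24 in BRAF R and 6.62 ± 0.18 in BRAF NEG), with a limma adjusted p of 0.0482 that became 0.0546 in the fit blocked by mouse.

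Errfi1 had the pattern of Hbegf at a similar brightness. It read 1564.2, 3325.4 and 3516.4 in BRAF R, against 482.9, 935.9 and 789.3 in BRAF NEG. The groups did not overlap, and the folds within the mice were 3.24, 3.55 and 4.46. The difference was 1.89 ± 0.45 (SE, n = 3 each; limma adjusted p = 0.0121).

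Lrig1 went the other way. It read 578.8, 779.7 and 606.8 in BRAF R, against 1311.3, 1252.2 and 1667.2 in BRAF NEG. BRAF R was the lowest of the 6 groups for Lrig1, with no overlap with any other group, and the ratios within the mice were 0.441, 0.623 and 0.364. The difference of -1.11 ± 0.18 (SE) had a limma adjusted p of 0.00107. In the same comparison 6 of 10 tested intestinal stem cell markers fell (summed intensity 4270 to 5440 in BRAF R and 10300 to 12500 in BRAF NEG), and their part in the Lrig1 difference was not tested.

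With 2 BRAF mice in place of 3, fewer members were called between BRAF R and BRAF NEG, while the differences of Hbegf, Btc and Errfi1 kept about their size. Without mouse 2 only Btc and Lrig1 were called, with Hbegf at 2.01 and Errfi1 at 1.93. Without mouse 3 only Hbegf and Lrig1 were called, with Errfi1 at 1.76 and Btc at 1.65. Lrig1 passed whichever of the 3 mice was left out. Fitted on the 6 arrays of this comparison alone, 3 members passed (Hbegf, Errfi1 and Lrig1), where 601 of 10607 genes did. Btc lost its call without the filter on dim probes (adjusted p = 0.0641), and Tgfa with cyclic loess (0.064), with array weights (0.148) or without any 1 of the 3 mice (0.0647 to 0.364).

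The receptor Egfr was measured by 4 probes, 3 of them above the filter. The brightest read 365.5, 1016.6 and 340.1 in BRAF R, against 327.2, 246.9 and 313.4 in BRAF NEG. Mouse 2 in BRAF R stood far above the other 15 arrays, and mice 1 and 3 were within the range of the luciferase gates. The difference of 0.77 ± 0.33 (SE) had a limma adjusted p of 0.139. A second probe, annotated to another RefSeq transcript of Egfr, read 372.5, 272.5 and 174.9 in BRAF R, against 95.3, 137.6 and 131.8 in BRAF NEG. On both probes all 3 BRAF R values lay above all 3 BRAF NEG values, and the second probe had a difference of 1.12 ± 0.25 (SE; limma adjusted p = 0.00936 over 15000 probes). The third probe differed by 0.71 ± 0.25 (adjusted p = 0.076), and the fourth was dim on all arrays (80.5 to 118.8). The mean of the 3 kept probes differed by 0.87 (limma adjusted p = 0.0174), so the call for Egfr depended on the choice of probe.

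**Figure D2:**
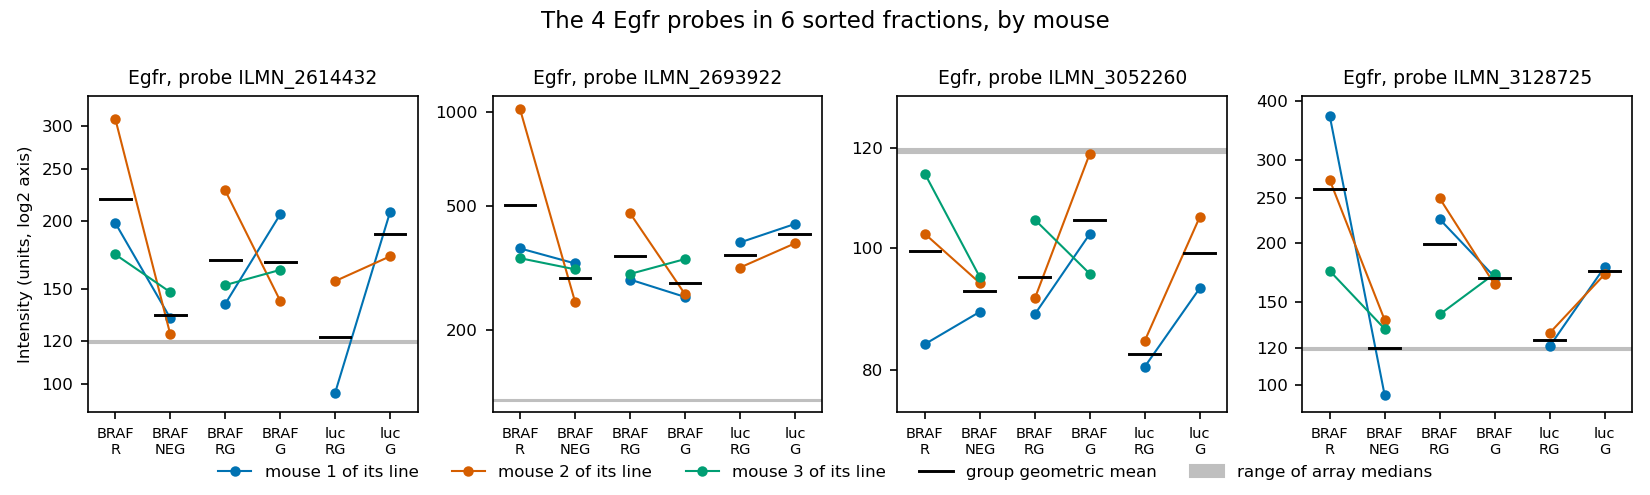
Intensity (log2 axis) of the 4 Egfr probes in the 6 sorted fractions, with points for arrays coloured by mouse, black bars for group geometric means and a grey band for the range of array medians. BRAF R lay above BRAF NEG in all 3 mice on 3 of the probes, and the high BRAF R value of mouse 2 on the brightest probe was 1016.6.

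In Lgr5-high cells, none of the 7 genes passed between BRAF RG and BRAF G (limma, 0 of 7), where 0.801% of all genes were called. An unadjusted p under 0.05 was found for 5 of them. With mouse as a fixed block 3 passed (Hbegf, Btc and Errfi1), where 201 of 10607 genes did. With mouse as a random block 1 passed (Errfi1), where 168 genes did. Of 12 enteroendocrine markers, 4 were higher in BRAF RG, and 3 of 7 tuft cell markers were lower (767 to 813 in BRAF RG and 1490 to 1910 in BRAF G). Their part was not tested.

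Hbegf read 594.6, 1514.4 and 2404.3 in BRAF RG, against 229.9, 469.1 and 877.3 in BRAF G. The gates overlapped, but within each mouse BRAF RG was higher, by 2.59-, 3.23- and 2.74-fold. The difference was 1.51 ± 0.50 (SE), with a limma adjusted p of 0.273 that became 0.0121 in the fit blocked by mouse.

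Btc read 239.6, 917.9 and 294.9 in BRAF RG, against 120.1, 188.4 and 142.1 in BRAF G, with no overlap. The difference was 1.44 ± 0.50 (SE), with a limma adjusted p of 0.294 that became 0.0111 in the blocked fit. Errfi1 read 702.2, 2609.3 and 2443.0 in BRAF RG, against 362.7, 680.6 and 763.2 in BRAF G. The low value of mouse 1 in BRAF RG lay within the range of BRAF G, yet within the mice the folds were 1.94, 3.83 and 3.2. Its difference was 1.52 ± 0.45 (SE), with a limma adjusted p of 0.178, which was 0.00144 with a fixed and 0.0398 with a random mouse block.

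Ereg read 119.0, 146.5 and 127.3 in BRAF RG, against 81.7, 76.3 and 83.8 in BRAF G. The gates did not overlap and BRAF G was dim, so Ereg was at least 1.09-fold higher in BRAF RG (mean log2 7.03 ± 0.15 in BRAF RG and 6.33 ± 0.07 in BRAF G, SD), which did not pass (limma adjusted p = 0.289). Tgfa, dim in BRAF G, the brightest Egfr probe (0.30) and Lrig1 (-0.40) did not pass either, with or without the block. Lrig1 was 1365.0, 1462.0 and 1107.2 in BRAF RG, against 1676.5, 1523.6 and 1975.6 in BRAF G, lower in BRAF RG in every mouse.

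In the luciferase line, none of the 7 genes passed between RG and G (limma, 0 of 7, with an unadjusted p under 0.05 for 1), although 11.9% of all genes did. Hbegf read 553.7 and 299.8 in luciferase RG, against 190.2 and 205.2 in luciferase G. Both luciferase RG values were higher, by 2.91- and 1.46-fold within the mice, and the difference of 1.04 ± 0.61 (SE, n = 2 each; limma adjusted p = 0.282) passed with a fixed mouse block (adjusted p = 0.0464) and not with a random one (0.155). Errfi1 read 471.6 and 456.7 in luciferase RG, against 308.7 and 345.0 in luciferase G, a difference of 0.51 ± 0.55 (SE; adjusted p = 0.587). In this fit, which leaves mouse out, its 95% interval ran from -0.66 to 1.68, which includes the difference seen in the BRAF line. With a fixed mouse block the SE of Errfi1 was smaller (0.24), and it did not pass there either (limma adjusted p = 0.162). The interval therefore does not settle whether the lines differ.

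Lrig1 read 831.1 and 1105.7 in luciferase RG, against 1621.7 and 1422.4 in luciferase G. It was lower in both mice, with a difference of -0.66 ± 0.23 (SE) and a limma adjusted p of 0.0683, against 0.0455 with a random and 0.0713 with a fixed mouse block. Ereg, Btc and Tgfa were dim on all 4 luciferase arrays, so no fold is given for them. In the same comparison 11 of 12 enteroendocrine markers and 6 of 6 goblet cell markers were higher in luciferase RG, and 5 of 10 stem cell markers and 2 of 7 tuft cell markers were lower. Their part was not tested. The summed enteroendocrine intensity was 47800 to 48600 in luciferase RG and 9860 to 12100 in luciferase G.

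Set against each other, the RG gates of the 2 lines differed for 2 of the 7 genes, Btc and Errfi1, both higher in BRAF RG, where 9.55% of all genes were called higher. Btc was above the array median on 11 arrays, all of the BRAF line, so it entered the test through the line in which it was high and had to differ. It was 239.6, 917.9 and 294.9 in BRAF RG, against 97.4 and 96.0 in luciferase RG, where it was dim. It was at least 3.37-fold higher in BRAF RG (mean log2 8.65 ± 1.04, n = 3, in BRAF RG and 6.60 ± 0.015, n = 2, in luciferase RG, SD; limma adjusted p = 0.0212). Errfi1 averaged 10.69 ± 1.07 on the log2 scale in BRAF RG and 8.86 ± 0.033 in luciferase RG (SD), a difference of 1.83 ± 0.50 (SE; limma adjusted p = 0.0229). For both genes every BRAF RG array lay above both luciferase RG arrays. Hbegf missed the threshold, with 1.67 ± 0.56 (SE; limma adjusted p = 0.0524), and passed with a random mouse block (0.031).

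The calls changed when mice were left out. Without BRAF mouse 3, 0 members passed, with Errfi1 at 1.54, and without BRAF mouse 2 only Btc did, with Errfi1 at 1.5. Without either luciferase mouse 0 passed, with Errfi1 at 1.81 to 1.85. Luciferase RG then had 1 array, assumed to vary like the other groups. Without BRAF mouse 1, which had the lowest Hbegf and Errfi1 of the BRAF RG arrays, 4 passed. Fitted on the 5 arrays of this comparison alone, or with array weights, 0 passed. Markers of secretory cells were lower in BRAF RG than in luciferase RG (8 of 12 enteroendocrine and 5 of 6 goblet), and their part was not tested. Of the remaining members, Ereg, dim in luciferase RG and at least 1.09-fold higher in BRAF RG (adjusted p = 0.0689), and Lrig1 (0.44, adjusted p = 0.154) did not pass. Neither did Tgfa, dim in luciferase RG, nor the brightest Egfr probe (-0.0054, with a 95% interval of -0.78 to 0.77).

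The non-red gates of the 2 lines gave 0 calls among the 7 genes (limma, BRAF G against luciferase G, where 0.217% of all genes were called), with an unadjusted p under 0.05 for 1 of them. That gene was Hbegf, at 229.9, 469.1 and 877.3 in BRAF G, against 190.2 and 205.2 in luciferase G. All 3 BRAF G values were the higher, and the difference of 1.21 ± 0.56 (SE) had a limma adjusted p of 0.632. Errfi1 differed by 0.81 ± 0.50 (SE). Btc was dim in luciferase G, and on the group means it was at least 1.23-fold higher in BRAF G (limma adjusted p = 0.962). The 95% interval of its measured log2 difference ran from -0.63 to 1.74, so no rise was shown. Neither gene overlapped between the groups, and neither passed. Whether the change between RG and G differed between the lines was tested as an interaction, which gave 0 calls (0.481% of all genes called). Btc was dim in both luciferase gates, so no size is given for it (limma adjusted p = 0.432). Errfi1 had 1.01 ± 0.71 (SE; adjusted p = 0.578). With a fixed mouse block the limma adjusted p was 0.0761 for Btc and 0.114 for Errfi1, and with a random one 0.239 and 0.373. Without a block Hbegf had 0.46 ± 0.79 (SE), with a 95% interval of -1.22 to 2.14. Whether its difference was larger or smaller in the BRAF line was thus not resolved at this number of mice. With a fixed mouse block its SE was 0.43, and it did not pass (limma adjusted p = 0.612).

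Between the 2 red gates of the BRAF line, 1 of the 7 genes was called and it was lower in BRAF R than in BRAF RG, where 1.64% of all genes were called lower. That gene was Lrig1, with 578.8, 779.7 and 606.8 in BRAF R, against 1365.0, 1462.0 and 1107.2 in BRAF RG. The difference was -1.0 ± 0.18 (SE; limma adjusted p = 0.0133), and it kept its size but no longer passed when any 1 of the 3 mice was left out (-0.89 to -1.07) or on the 6 arrays alone (adjusted p from 0.0605 to 0.236 over these fits). Of 10 stem cell markers 2 were lower in BRAF R (summed intensity 4270 to 5440 in BRAF R and 8470 to 9330 in BRAF RG), and 2 of 12 enteroendocrine and 1 of 6 goblet markers were higher. Their part was not tested. Hbegf differed by 0.88 ± 0.50 (SE; adjusted p = 0.364), Errfi1 by 0.68 ± 0.45 (SE; adjusted p = 0.442) and Btc by 0.33 ± 0.50 (SE; adjusted p = 0.761). Between the non-red gates, BRAF NEG and BRAF G, 0 of the 7 passed (limma; 0 with an unadjusted p under 0.05), where 2.21% of all genes were called. Beside these differences, from -0.29 for Lrig1 to 0.31 for Hbegf and Errfi1, 14 of 16 leukocyte markers were higher in BRAF NEG. An interaction test of the change with red in Lgr5-low against Lgr5-high cells gave 0 calls among the 7 (1.27% of all genes called). Lrig1 had the lowest unadjusted p, with -0.71 ± 0.26 (SE; limma adjusted p = 0.488).

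**Figure D3:**
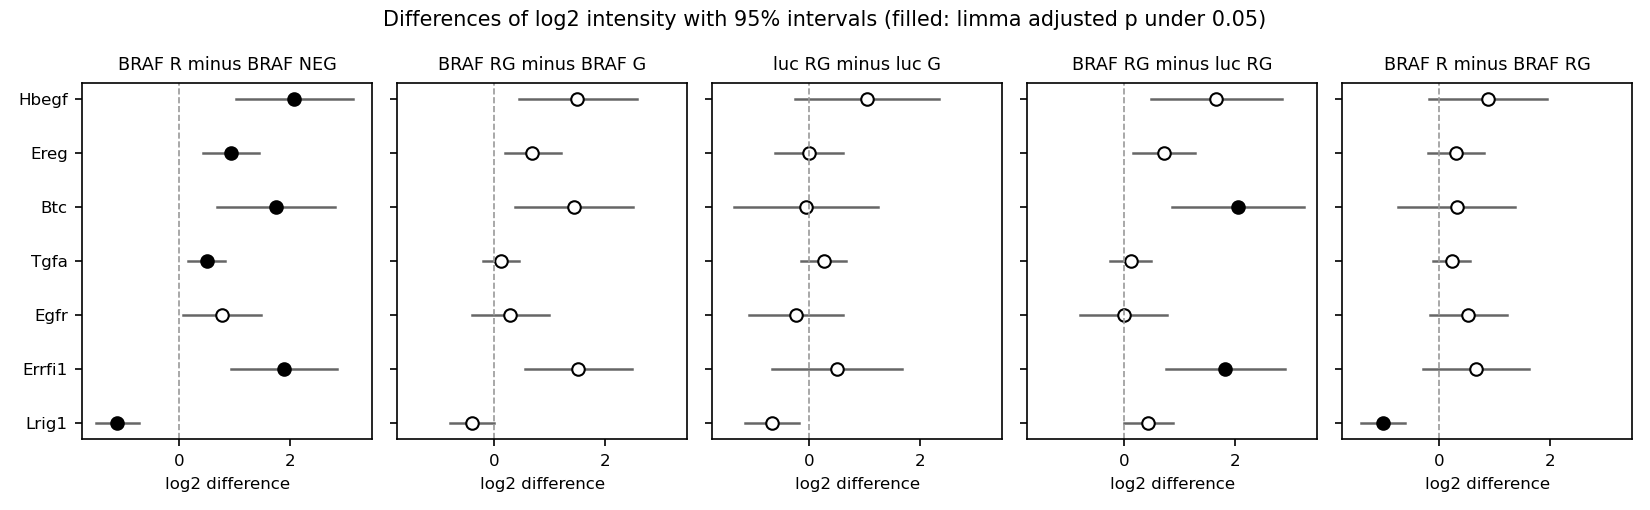
Log2 differences of the 7 genes in the comparisons between groups, as points with 95% intervals from limma, with filled points for calls at an adjusted p under 0.05. Differences that involve a dim group are those of the measured values. Of the 7, 5 genes lay above 0 and passed in BRAF R minus BRAF NEG, Lrig1 lay below 0 there, and Btc and Errfi1 passed in BRAF RG minus luciferase RG.

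The order of the groups was alike for Hbegf and Errfi1. Their geometric means in BRAF R, BRAF NEG, BRAF RG, BRAF G, luciferase RG and luciferase G were, for Hbegf, 2383, 563.5, 1294, 455.7, 407.4 and 197.6. For Errfi1 they were 2635, 709.2, 1648, 573.3, 464.1 and 326.3 in the same order of groups. Both were highest in BRAF R, then BRAF RG, and lowest in luciferase G, though neighbours in that order such as BRAF R and BRAF RG, or BRAF NEG and BRAF G, were not told apart by the test. Mouse 1 had the lowest Hbegf and the lowest Errfi1 of the 3 mice in all 4 BRAF gates.

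Across the 16 arrays, Pearson's r of log2 intensity was 0.948 between Hbegf and Errfi1, 0.916 between Ereg and Btc, 0.345 between Hbegf and Egfr and -0.591 between Hbegf and Lrig1. After the group means were removed it was 0.767 for Hbegf and Errfi1 and 0.757 for Ereg and Btc. These are descriptions, since the arrays share mice and gates. Among all genes tested, those most like Errfi1 were Plaur, the urokinase receptor (r = 0.986), Dusp6, an ERK phosphatase (0.958), and Socs3, an inhibitor of cytokine receptor signalling (0.955). Those most like Hbegf were Dusp6 (0.95), Errfi1 and Phlda1 (0.93). Those most like Btc were Il1rn, the interleukin 1 receptor antagonist (0.967), Anxa1 (0.952) and S100a10 (0.947), and those most like Ereg were Socs3 (0.944), Fosl1 (0.933) and Clic1 (0.931). Lrig1 was most like Slc12a2, a sodium, potassium and chloride cotransporter (0.955), Nap1l4 (0.942) and Gtf2i (0.937). Tgfa was most like Fermt1 (0.909), Trim8 (0.882) and Pdlim7 (0.874), and Egfr like Pkp1 (0.889), Kcnj12 (0.87) and Cyb5d2 (0.86).

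Of 7 further ligands and receptors of the family, 5 had a probe and 1 was tested. That was Nrg4, a ligand of ERBB4, at 70.9 to 101.5 in BRAF R, 97.3 to 143.9 in BRAF NEG, 84.1 to 122.6 in BRAF RG and 127.9 to 164.5 in BRAF G. It was 110.9 to 164.9 in luciferase RG and 207.3 to 220.8 in luciferase G, and it was called in none of the comparisons. The probes of Egf, Epgn, Nrg1 and Nrg3 were dim on all 16 arrays.

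Among 11 genes of ligand shedding and trafficking, 9 were tested and few passed. Between BRAF R and BRAF NEG 2 were higher, Timp3 (1.42, limma adjusted p = 0.00192), an inhibitor of metalloproteases including ADAM17, and the tetraspanin Cd9 (0.64, adjusted p = 0.0175), and 7 were not called (median of the 9, 0.35), beside 5.26% of all genes called higher. Timp3 was 552.7, 572.4 and 262.6 in BRAF R, against 173.1, 191.2 and 130.1 in BRAF NEG. It was also the 1 gene of the list called between BRAF RG and BRAF G (1.19, adjusted p = 0.042), where 0.801% of all genes were called. Timp3 was 374.8, 333.9 and 359.7 in BRAF RG, against 297.0 and 275.0 in luciferase RG, and did not pass (0.32, limma adjusted p = 0.472). It was 159.6, 130.3 and 182.7 in BRAF G, below the 472.4 and 369.9 of luciferase G. That difference of -1.42 did not pass either (limma adjusted p = 0.0628). Adam17, which encodes a sheddase of HB-EGF and TGF-alpha, was lower in luciferase RG than in any other group. It read 551.6 and 533.7 in luciferase RG, against 1122.8 and 1107.9 in luciferase G, a difference of -1.04 ± 0.18 (SE, n = 2 each; limma adjusted p = 0.00224). It read 1067.1, 1127.6 and 1186.0 in BRAF RG, where it was higher than in luciferase RG by 1.05 ± 0.17 (SE; adjusted p = 0.00121), together with Cd9 (0.62) and Rhbdf1 (1.15), an iRhom that escorts ADAM17. These were 3 of the 9, where 9.55% of all genes were called higher. For Cd9 the non-red gates were apart as well, without a call (0.56, limma adjusted p = 0.36). It was 210.1, 264.7 and 226.2 in BRAF G, against 149.3 and 166.7 in luciferase G. Rhbdf1 was 83.3 and 185.6 in luciferase RG in mice 1 and 2, against 183.2 and 175.6 in luciferase G, so it was low in mouse 1 only. Adam17 did not pass between BRAF RG and BRAF G.

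Of 24 genes of receptor turnover and inhibition, 21 were tested, and 1 rose between BRAF R and BRAF NEG, Socs3 (1.74, limma adjusted p = 0.00568). Socs3 was 353.1, 919.5 and 726.5 in BRAF R, against 118.7, 206.7 and 258.8 in BRAF NEG. Socs3 (1.48) and the phosphatase gene Ptpn1 (0.88) were the 2 higher in BRAF RG than in luciferase RG. The median of the 21 was 0.033 and 0.026 in those comparisons, and the counts of 1 and 2 were near the shares of all genes called higher (5.26% and 9.55%). Ptpn1 was 124.9 and 228.8 in luciferase RG, against 290.9, 370.8 and 280.5 in BRAF RG and 242.7 and 271.1 in luciferase G. Of 15 adaptors that act at the receptor, 12 were tested and Pik3r1, the regulatory subunit of PI3 kinase, was the 1 called. In BRAF R against BRAF NEG this count of 1 of 12 was near the 7.3% of all genes called lower. Pik3r1 was 1527.7, 1515.4 and 1287.0 in BRAF R, against 2074.0, 2208.8 and 2950.4 in BRAF NEG, a difference of -0.73 ± 0.17 (SE; limma adjusted p = 0.0114). It was also lower in BRAF RG than in luciferase RG (-0.99, adjusted p = 0.00358), where 1761 of 10607 genes were called in either direction. The non-red gates were apart as well, without a call, at 2267.1, 1938.9 and 2656.8 in BRAF G, against 4038.1 and 4003.0 in luciferase G.

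Of 14 genes transcribed in response to ERK activity, 13 were tested, and 6 rose between BRAF R and BRAF NEG while 7 were not called (median 1.05), beside 5.26% of all genes called higher. They were Dusp4, Dusp6, Fosl1, Spry4, Ier3 and Phlda1. Of these, Fosl1 was dim on every array outside BRAF R and BRAF RG. It therefore entered the test through the cells in which it was high and had to differ, here and against luciferase RG. Dusp6 was 10557.9, 10429.0 and 9946.6 in BRAF R, against 2148.9, 3235.7 and 3096.4 in BRAF NEG, a difference of 1.89 ± 0.31 (SE; limma adjusted p = 0.000936). Between BRAF RG and BRAF G only Dusp6 (1.58, adjusted p = 0.0229) and Dusp4 (1.16, adjusted p = 0.0466) passed, where 0.801% of all genes did. Of the 13, 6 were also higher in BRAF RG than in luciferase RG, namely Ier3, Dusp6, Etv4, Fosl1, Phlda1 and Spry2, where 9.55% of all genes were. In luciferase RG mice 1 and 2, Ier3 was 145.3 and 362.0 and Phlda1 was 695.7 and 237.5, so both varied. The lowest BRAF RG values were 665.8 for Ier3 and 726.5 for Phlda1. In luciferase RG against luciferase G, Dusp4 (1.56, adjusted p = 0.00509) and Etv5 (1.06, adjusted p = 0.009) rose, 2 of 13 where 11.9% of all genes were called. Etv5 was the 1 gene of the list whose interaction of gate and line passed, where 0.481% of all genes did. It was 282.6, 240.0 and 260.4 in BRAF RG and 322.8, 360.4 and 373.7 in BRAF G. It was 379.0 and 429.0 in luciferase RG and 195.9 and 192.1 in luciferase G, with an interaction of -1.49 ± 0.30 (SE; limma adjusted p = 0.041). Without BRAF mouse 2 or 3, only 1 and 3 of all genes passed this interaction, and Etv5 itself was not followed in those fits.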

How the data were processed

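Per the labels, each of 16 arrays held RNA of 1 sorted fraction. The authors deposited linear intensity values, which the submitters' processing notes tie to GenomeStudio (no version stated in the sources used). From the values, the deposited intensities appear quantile-normalized together, since sorted arrays differ by at most 1.2. The lowest value is 55.7, so background appears not subtracted and differences of dim genes would be understated. A non-normalized table was not used, because its 32 columns match no labels.

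Log2 intensity was tested with limma 3.58.1 in R 4.3.3 (lmFit, eBayes, Benjamini-Hochberg over 10607 genes), 6 groups in 1 fit with 10 residual degrees of freedom. A probe was kept if it exceeded the array median on 2 or more arrays (16005 of 25697), and a gene is its brightest kept probe. "At least N-fold" sets the bright group's mean against the dim probe's own value or the array median, whichever is larger. It compares group means without an interval, so it sets no lower limit where a difference was not called. Probe names came from the platform annotation, and 23962 probes matched a RefSeq table (GRCm38.p6) by Entrez identifier.

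The array titles give a replicate number, and arrays of 1 number within a line were taken to come from 1 mouse. Deviations from group means correlated above 0.1 in 18 of 18 same-mouse BRAF pairs (median r 0.319). In the luciferase line r was 0.0457, so this check did not show the pairing there. Mouse was a block as an alternative. Other alternatives were filters, probe rules, array weights, a background shift, cyclic loess, an eBayes trend and leaving out each mouse. Fitting every kept probe by itself, used for Egfr, was added after seeing the data. The 10 members were named whatever they showed, with called genes of the other lists where at most 6 were called, and 3 genes of highest r per member. Members and lists were chosen with earlier results of these data known. The scripts were tested on simulated data. The number of arrays limits the precision, and no chip or processing day was given, so no batch was tested.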

Additional observations from a re-analysis of the deposited data

How the results depend on the processing

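Of the alternatives run on single genes, 115 kept a call and 35 lost one, and 860 stayed uncalled with the same sign, 22 gained a call and 16 changed sign, all 16 of them uncalled. Members called between BRAF RG and BRAF G numbered 0, and 4 with array weights, 3 with a fixed mouse block and 1 with a random one (0 to 1 leaving out a mouse or array); all genes called were 85, and 292, 201 and 168 under those settings (17 to 131). For BRAF R and BRAF NEG, fitting only the arrays compared gave 3 members (6 in the fit of all groups; 2 to 5 leaving one out) and 601 genes (1332; 612 to 1279). For luciferase RG and G, each mouse block gave 1 member (0; 0 to 0 leaving one out), and only the arrays compared gave 455 genes (1261; 341 to 1700). For BRAF RG and luciferase RG, only the arrays compared and array weights gave 0 members (2; 0 to 4) and 343 and 625 genes (1761; 889 to 2269). For BRAF G and luciferase G, only the arrays compared and array weights gave 383 and 1054 genes (23; 1 to 23; members 0 to 1). For BRAF R and BRAF RG, only the arrays compared gave 0 members and 0 genes (1 and 234; 0 to 1 and 5 to 208), and array weights, the fixed and the random mouse block gave 142, 573 and 593 genes. For BRAF NEG and BRAF G, array weights gave 473 genes (234; 135 to 252; members 0 to 0). For the interaction of lines, the background shift gave 29 genes, only the arrays compared 109, the fixed mouse block 221 and the random one 220 (51; 0 to 183). For the interaction of Lgr5-low and Lgr5-high cells, leaving one out gave 75 to 123 genes (135). Members called in both interactions were 0 to 0. Beyond the members' calls that the report gives with a mouse block, the block changed none. The changes of sign were as follows. Leaving one out, Tgfa ran from -0.022 to 0.21 in BRAF RG minus BRAF G, where it was negative without BRAF mouse 2. For luciferase RG minus G, Ereg ran from -0.15 to 0.15 (positive without luciferase mouse 1) and was 0.0081 with the background shift, and Btc was 0.037 with cyclic loess. For BRAF RG minus luciferase RG, Egfr ran from -0.23 to 0.13 (positive without BRAF mouse 1 or 3 or luciferase mouse 1), and was 0.38 as the mean of kept probes and 0.032 with array weights. Ereg ran from -0.0795 to 0.15 in BRAF G minus luciferase G (negative without luciferase mouse 2). For BRAF NEG minus BRAF G, Ereg ran from -0.12 to 0.23 and Btc from -0.11 to 0.11 (both negative without BRAF mouse 2), and Egfr from -0.095 to 0.14 (negative without BRAF mouse 1), with -0.25 as the mean of kept probes. For the interaction of lines, Hbegf ran from -0.036 to 0.96 (negative without luciferase mouse 2) and Lrig1 from -0.034 to 0.57 (negative without luciferase mouse 1). The causes were not tested. The stricter filter gave no value for Ereg, and no fixed mouse block could be made between lines.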
